A study of Caenorhabditis elegans with 2 samples.

Results

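The vacuolar ATPase (V-ATPase) membrane sector, called V0, was described through the 10 genes of Caenorhabditis elegans that encode its subunits, out of 19973 protein-coding genes on the 6 nuclear chromosomes. The genes were taken by name: vha-1, vha-2, vha-3 and vha-4 for the proteolipid ring, unc-32, vha-5, vha-6 and vha-7 for subunit a, vha-16 for subunit d, and vha-17 for subunit e. The rule that takes them uses no measured value. The data were peak lists from chromatin immunoprecipitation with sequencing (ChIP-seq) of AMA-1, the catalytic core subunit of RNA polymerase II. They came from whole third-stage (L3) larvae of the wild-type strain N2, both sexes pooled, at an age given as unknown. The labels give 2 biological replicates of 1 group and do not say whether these were separate cultures. With 1 condition there is nothing to test against, and every value below is a description of the L3 stage.

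The V-ATPase is a rotary proton pump of lysosomes, endosomes, secretory vesicles and some plasma membranes. Its V1 sector in the cytosol hydrolyses ATP and turns the V0 proteolipid ring in the membrane, and protons cross between that ring and subunit a. In this worm the a subunit exists in 4 forms known for different tissues: UNC-32 for neurons, VHA-5 for the excretory canal and epidermis, VHA-6 for the intestine, and VHA-7 for the epidermis and uterus. Since whole larvae were used, fewer cells carrying polymerase on a gene and less polymerase per cell cannot be told apart.

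The DNA under optimal peaks is shown first for vha-1, vha-2, vha-3 (its inner summit), unc-32 and vha-17, because the results turn on where summits lie. The summits of vha-16 and the outer summit of vha-3 bear on the results as well but are not shown. Each line holds 121 bases of the RefSeq genome, build WBcel235 (ce11), read along the gene's own strand. The capitals mark the 11 bases centred on the summit of an optimal peak. A line's label gives the place of the summit base only, and the bases around it can lie in other parts. The unc-32 line past the 3′ end, for example, holds 16 bases of annotated untranslated region. The vha-1 sequence is at chrIII:9780857-9780977 on the plus strand and the vha-2 sequence at chrIII:9782255-9782375 on the plus strand. The vha-3 sequence is at chrIV:2315629-2315749 on the minus strand. Those of unc-32 are at chrIII:8909010-8909130 and chrIII:8911741-8911861, and that of vha-17 is at chrIV:9322667-9322787, all on the plus strand.
vha-1, before the gene: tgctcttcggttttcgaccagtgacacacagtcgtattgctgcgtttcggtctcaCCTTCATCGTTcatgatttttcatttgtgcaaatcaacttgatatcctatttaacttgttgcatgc
vha-2, coding exon: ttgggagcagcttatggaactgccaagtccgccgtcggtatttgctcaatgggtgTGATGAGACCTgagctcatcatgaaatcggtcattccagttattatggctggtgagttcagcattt
vha-3, coding exon: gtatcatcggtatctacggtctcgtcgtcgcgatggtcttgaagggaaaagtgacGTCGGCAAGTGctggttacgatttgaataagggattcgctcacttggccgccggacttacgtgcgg
unc-32, coding exon: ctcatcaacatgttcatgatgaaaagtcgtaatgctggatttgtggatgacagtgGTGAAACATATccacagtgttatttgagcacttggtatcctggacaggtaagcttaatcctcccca
unc-32, past the 3′ end: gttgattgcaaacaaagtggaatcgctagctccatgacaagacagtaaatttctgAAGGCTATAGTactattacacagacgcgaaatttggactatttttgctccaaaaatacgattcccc
vha-17, past the 3′ end: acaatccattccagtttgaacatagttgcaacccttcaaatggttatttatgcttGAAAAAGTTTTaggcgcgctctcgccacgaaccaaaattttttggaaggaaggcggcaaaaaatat

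vha-2 and vha-3 are shown at their coding starts because both encode the same protein of 161 residues, 100% identical, so that only the DNA can tell their peaks apart. Over their coding DNA the pair was 85.2% identical, and the longest run they shared was 23 bases. vha-1, which encodes another proteolipid c subunit, was 65.8% identical to either at the protein level. Each line holds 120 bases along the gene strand with the coding bases in capitals, at chrIII:9782105-9782224 (vha-2), chrIV:2315886-2316005 (vha-3, minus strand) and chrIII:9781194-9781313 (vha-1).
vha-2: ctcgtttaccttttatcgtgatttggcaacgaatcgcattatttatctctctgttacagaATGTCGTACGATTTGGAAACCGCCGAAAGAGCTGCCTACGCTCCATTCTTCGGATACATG
vha-3: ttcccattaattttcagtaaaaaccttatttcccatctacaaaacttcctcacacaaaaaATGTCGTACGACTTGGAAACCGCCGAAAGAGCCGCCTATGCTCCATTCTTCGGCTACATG
vha-1: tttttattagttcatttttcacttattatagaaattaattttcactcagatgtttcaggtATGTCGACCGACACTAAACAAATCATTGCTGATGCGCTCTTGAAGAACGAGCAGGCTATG
Of the 285 stretches of 36 bases in each of the 10 V0 optimal peaks, 0 occurred anywhere else in the genome. Reads of that length from these peaks had 1 perfect place each, although the read length used is not given in the sources used here.

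Polymerase peaks were found at V0 genes at a higher share than at protein-coding genes in general, but not at all of them. A gene's window ran from 1000 bp upstream of its annotated 5′ end to 500 bp past its 3′ end. The most stringent list, the authors' optimal list, holds 3052 peaks that passed a threshold on the irreproducible discovery rate, a measure of how repeatably peaks rank in replicates. It put at least 1 summit, the peak's highest point, in 6 of 10 V0 windows, which were those of vha-1, vha-2, vha-3, unc-32, vha-16 and vha-17. Over all protein-coding genes the share was 11.9%. vha-4, vha-5, vha-6 and vha-7 had no optimal summit. In all there were 10 optimal summits in V0 windows, and 3 genes, vha-3, unc-32 and vha-16, had 2 or more, against 4.08% of all genes.

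Every V0 gene had weaker regions. The authors' lists for the pooled reads, replicate 1 and replicate 2 each hold 30000 regions, and each put at least 1 summit in 10 of 10 V0 windows. For all protein-coding genes the shares were 48.1% in the pooled list, 46.4% in replicate 1 and 52.5% in replicate 2. The windows were not longer than usual, with a median of 3302.5 bp for V0 genes and 3527 bp for all genes. Each of the 3 lists put 44 distinct summits in them. Per kb of window the median was 1.32 pooled summits for V0 genes and 0 for all genes, and there were 2.25 optimal summits per 10 kb of V0 window against 0.413 per 10 kb of all windows.

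**Figure D1:**
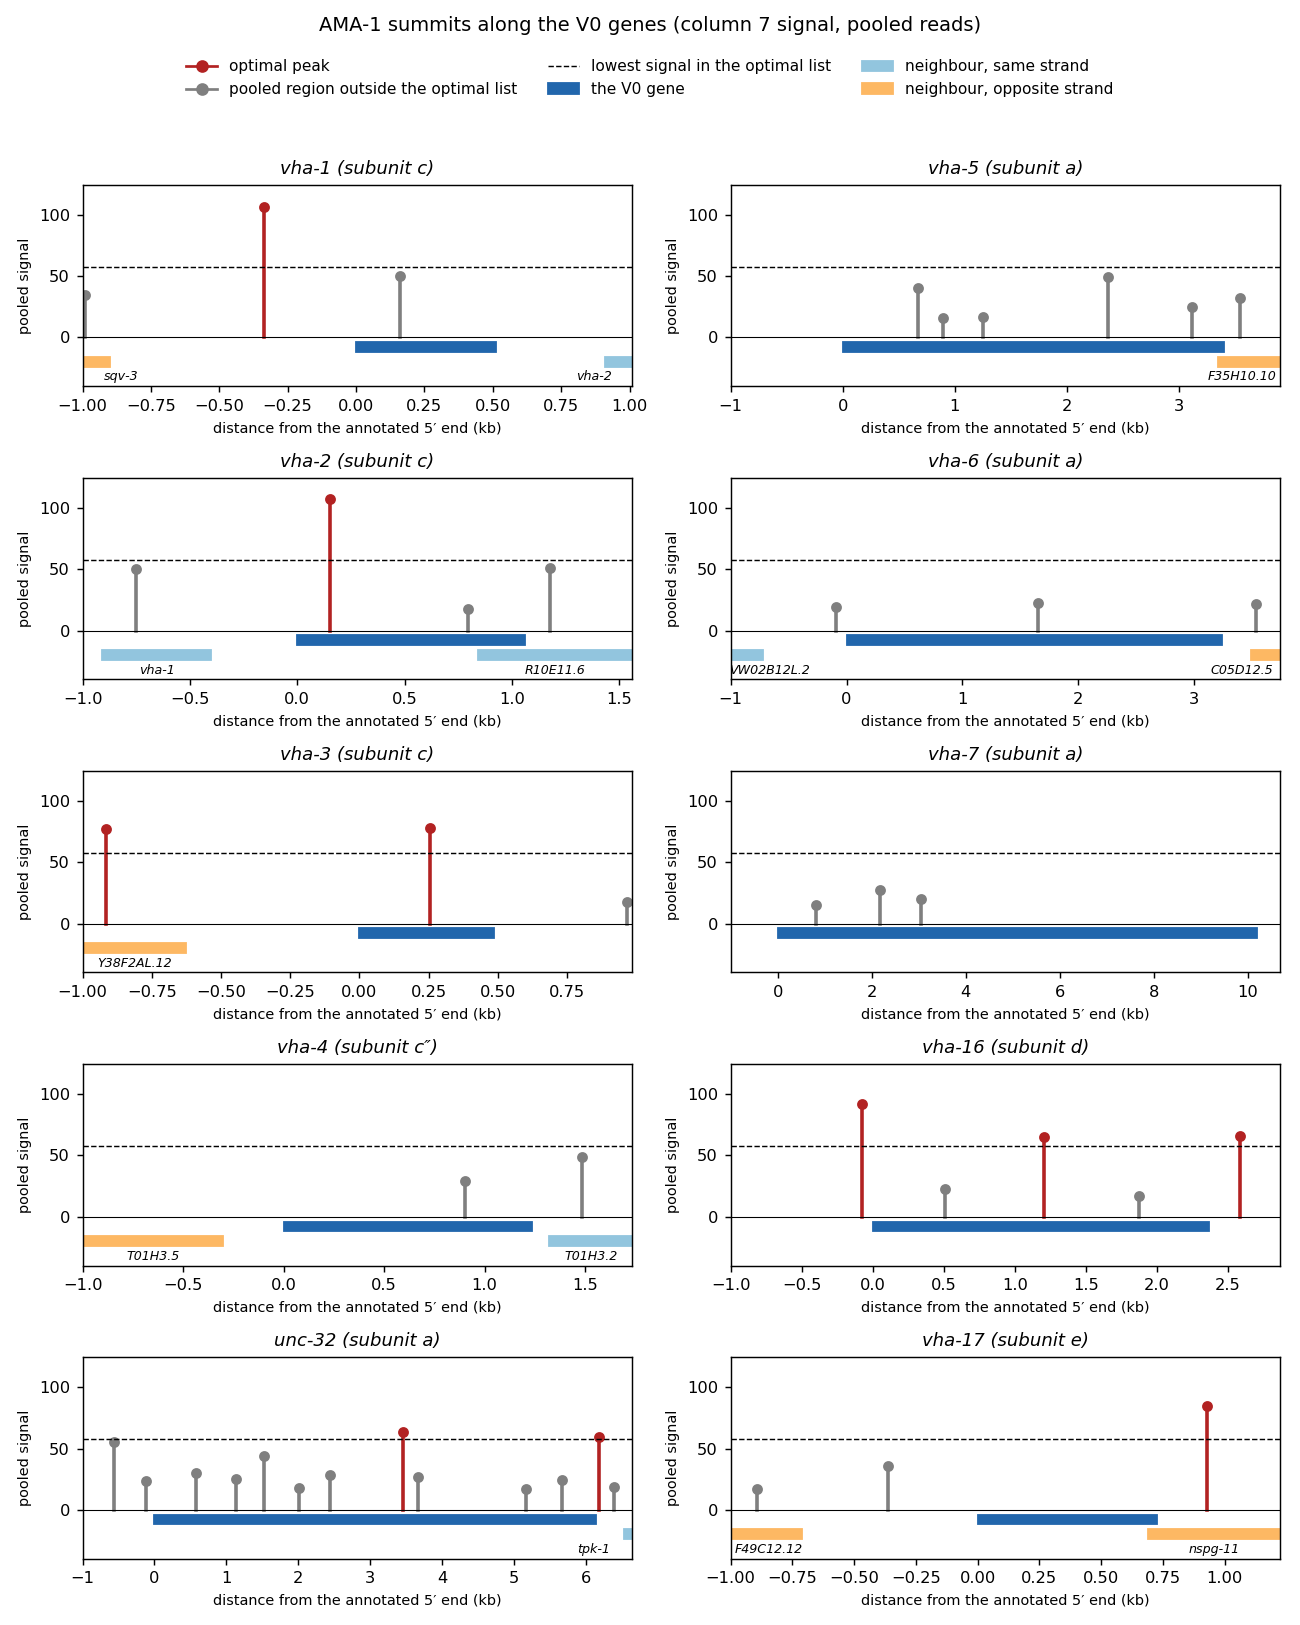
Pooled regions along the 10 V0 genes, each drawn 5′ to 3′ with distance from its annotated 5′ end in kb on the horizontal axis and the authors' signal value (pooled list) on the vertical axis. Each stem is a pooled summit, optimal summits are red and other pooled summits grey, the dashed line is the lowest signal in the optimal list, and bars below mark the gene and its neighbours. vha-1 and vha-2 reach 106 and 107, while vha-6 and vha-7 stay at 22.8 and 27.1.

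The V0 optimal summits lay before, inside and past the genes, and their placing was not tested. Optimal summits lay in the 1000 bp upstream of 3 V0 genes (vha-1, vha-3, vha-16), against 5.54% of all genes, and inside 4 V0 genes (vha-2, vha-3, unc-32, vha-16), against 5.63%. They lay in the 500 bp past the 3′ end of 3 V0 genes (unc-32, vha-16, vha-17), against 4.5%. Within 500 bp of the annotated 5′ end on either side were the optimal summits of 4 genes, vha-1, vha-2, vha-3 and vha-16, against 6.07% of all genes. At 250 bp on either side the count was 2, vha-2 and vha-16, against 4.07% of all genes. The vha-3 summit counted at 500 bp lay slightly nearer the 3′ end of this short gene, 229 bp before it. In worms a spliced leader often replaces the start of a transcript, so an annotated 5′ end can lie downstream of where transcription began. vha-1 and vha-3 carry no annotated untranslated region, so their ends are the start and stop codons.

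vha-1, the first gene of the proteolipid pair on chromosome III (WBGene00006910, 9781254 to 9781763, plus strand), had its optimal peak in front of the gene. The summit at 9780917 lay 337 bp upstream of the start codon, between genes. Its signal, which is the authors' own value per peak on a scale not given in the sources used here, was 106 in the pooled list, rank 784 of 30000. It was 77.2 in replicate 1, rank 825, and 29.3 in replicate 2, rank 1361. Because the scale can differ between lists, ranks and not signals are compared across them. Both replicates thus placed this summit well inside their 3052 strongest regions. The other pooled summits were weaker, 35.1 at 990 bp upstream (rank 8330) in a coding exon of sqv-3 and 49.9 at 161 bp inside vha-1 (rank 4196).

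vha-2, the next gene on the same strand (WBGene00006911, 9782164 to 9783224), had the strongest signal of the V0 genes in the pooled list, just above vha-1, and had it inside the gene. Its best region ranked below those of vha-1, vha-17 and vha-16 in replicate 1 and below that of vha-3 in replicate 2. The summit at 9782315 was 151 bp past the 5′ end in a coding exon. Its signal was 107 in the pooled list at rank 768, 55.2 in replicate 1 at rank 1712 and 43.4 in replicate 2 at rank 551. The start of vha-2 lay 400 bp past the end of vha-1, and the pooled summit inside vha-1 was also in the vha-2 window, 749 bp upstream. No optimal summit lay in both windows. Past the 3′ end, at 119 bp, a pooled region of signal 50.7 ranked 4075, and replicate 1 had a summit 1199 bp from the 5′ end with signal 50.1 at rank 2126. Both summits lay in a coding exon of R10E11.6, a gene on the same strand, so they are not specific to vha-2. Replicate 2 had no summit past the 3′ end of vha-2, its nearest being 40 bp before that end with signal 15.2 at rank 6222. A last pooled summit, 262 bp before the 3′ end, had signal 17.5.

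vha-3, the gene on chromosome IV for the protein identical to VHA-2 (WBGene00006912, 2315460 to 2315945, minus strand), carried a pair of optimal summits with almost the same pooled signal. The inner one at 2315689 lay in the coding exon, 256 bp past the start codon and 229 bp before the 3′ end. It had signal 78.0 (rank 1578) in the pooled list, 44.1 (rank 2821) in replicate 1 and 23.5 (rank 2353) in replicate 2. The outer one at 2316860, 915 bp upstream, had signal 77.0 (rank 1615) in the pooled list, 30.4 (rank 6012) in replicate 1 and 46.0 (rank 463) in replicate 2. The replicates ordered these summits differently: the inner one was the higher of the pair in replicate 1 and the outer one in replicate 2. The outer summit lay in the 5′ untranslated region of Y38F2AL.12, a gene on the opposite strand, so it is not specific to vha-3. Replicate 1 also had a summit 33 bp before the end of vha-3, with signal 48.6 at rank 2287. vha-11, which encodes subunit C of V1, starts 892 bp beyond vha-3 on the same strand, and a weak pooled region of signal 17.4 lay between the genes in both windows. vha-11 had an optimal summit of its own, 185 bp past its 5′ end, with signal 75.6 at rank 1697.

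vha-4, which encodes the larger proteolipid c″ (WBGene00006913, chromosome II, 7878082 to 7879316, minus strand), was the member of the ring without an optimal peak. It was 29.2 to 30.8% identical in protein to the 3 other ring subunits. Its strongest pooled summit, signal 48.9 at rank 4392, lay 253 bp past its 3′ end inside a coding exon of T01H3.2, which starts 87 bp away on the same strand. That summit ranked 3442 in replicate 1 and 3225 in replicate 2, just outside the 3052 strongest of each. The only other pooled summit was in a coding exon 901 bp past the 5′ end, with signal 29.2 at rank 11473. Near the 5′ end the pooled list had none, and the replicates had weak summits 410 bp (replicate 1, rank 24575) and 82 bp (replicate 2, rank 16039) upstream.

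Among the 4 genes for subunit a, whose proteins were 47.1 to 53.8% identical in pairs, unc-32 alone had optimal peaks. unc-32 (WBGene00006768, chromosome III, 8905615 to 8911756, plus strand) had 13 pooled summits, 14 in replicate 1 and 10 in replicate 2, the most of any V0 gene. The optimal summit at 8909070, in a coding exon 3455 bp into the gene, had signal 63.9 (rank 2462) in the pooled list, 54.9 (rank 1728) in replicate 1 and only 9.59 (rank 13896) in replicate 2, where the nearest summit was 154 bp away. That peak thus rested mainly on replicate 1. It lay 4 bp past the 3′ end of ZK637.20, a noncoding gene on the opposite strand.

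The other optimal summit of unc-32, at 8911801, was 45 bp past the 3′ end with signal 59.8 at rank 2837, the lowest of the V0 optimal peaks. Its ranks were 3785 in replicate 1 and 3824 in replicate 2. In front of the gene the strongest pooled region was 568 bp upstream with signal 55.5 at rank 3362, which missed the optimal list. The 10 remaining pooled summits of unc-32 had signals from 16.8 to 43.8. Replicate 2 had its own strongest summit 1737 bp into the gene, signal 24.5 at rank 2134, and replicate 1 had none within 200 bp of it.

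vha-5 (WBGene00006914, chromosome IV, 8303968 to 8307371, plus strand) had 6 pooled summits and none of them upstream. The strongest, 2371 bp into the gene in a coding exon, had signal 49.1 at rank 4338, and it ranked 6766 in replicate 1 and 4564 in replicate 2. Others lay 670 bp into the gene with signal 40.1 and 141 bp past the 3′ end with signal 31.9. The summit past the 3′ end ranked 19606 in replicate 1 and 3338 in replicate 2. Near the pooled summit at 670 bp, replicate 1 had one at 683 bp with rank 6566. The nearest of replicate 2 was at 851 bp with rank 28756, closer to another pooled summit at 891 bp. Past its 3′ end vha-5 meets the 3′ untranslated region of F35H10.10.

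vha-6, the intestinal form (WBGene00006915, chromosome II, 11435210 to 11438452, minus strand), had the lowest top signal of the V0 genes in the pooled list and in replicate 1, while vha-7 had it in replicate 2. Its 3 pooled summits had signals of 19.3 at 87 bp upstream, 22.8 at 1653 bp into the gene and 21.4 at 291 bp past the 3′ end, in a coding exon of C05D12.5. The best of them ranked 16736, in the weaker part of the pooled list. The best rank in replicate 1 was 17489 and in replicate 2 it was 7370.

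vha-7 (WBGene00006916, chromosome IV, 12640462 to 12650652, plus strand) is the longest V0 gene, and its window of 11691 bp held only 3 pooled summits, or 0.257 per kb. All were in the first part of the gene, with signals of 15.5 at 826 bp, 27.1 at 2182 bp and 20.3 at 3059 bp from the 5′ end. Replicate 1 had a single summit, 786 bp in, at rank 12956. Replicate 2 had 5, the best at 2191 bp and rank 8365, so the strongest pooled region had no counterpart within 200 bp in replicate 1.

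vha-16, which encodes subunit d, which links the central stalk to the ring (WBGene00016258, chromosome I, 5079910 to 5082279, minus strand), had 3 optimal summits, the most of any V0 gene. They were spaced over its whole length. The first, at 5082354, was 75 bp upstream with signal 91.9 (rank 1082) in the pooled list, 56.9 (rank 1598) in replicate 1 and 35.7 (rank 854) in replicate 2. The second, at 5081072 in a coding exon 1207 bp into the gene, had signal 65.2 (rank 2342), 41.0 (rank 3315) and 18.8 (rank 3941) in the same lists. The last, at 5079690, was 220 bp past the 3′ end with signal 66.3 (rank 2251), 31.5 (rank 5636) and 42.5 (rank 576). The upstream summit was high in both replicates, while the summit past the 3′ end was among the 3052 strongest in replicate 2 only. None of the 3 lay in another protein-coding gene's window, and the last was within 500 bp of the noncoding gene linc-156. Weak pooled regions of 23.0 and 17.1 lay between them.

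vha-17, which encodes subunit e, a small membrane protein (WBGene00009882, chromosome IV, 9321801 to 9322525, plus strand), had its optimal peak behind the gene. The summit at 9322727 was 202 bp past the 3′ end. It had signal 84.9 (rank 1304) in the pooled list, 62.4 (rank 1323) in replicate 1 and 27.0 (rank 1696) in replicate 2. All 3 ranks were within the strongest 3052. That position is also in an intron of nspg-11, on the opposite strand, so the data do not tie the peak to vha-17. In front of vha-17 the strongest pooled region was 365 bp upstream with signal 35.9 at rank 8016, and another had signal 17.1.

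Each replicate gave the same 6 V0 genes when it was used alone. Of the 10 V0 genes, 6 had one of the 3052 strongest regions of replicate 1 in the window, against 10.9% of all genes, and 6 had one of replicate 2, against 13.4%. In both replicates at once it was again those 6, against 7.75% of all genes. The positions need not be the same: unc-32 counted through the summit 3462 bp into the gene in replicate 1 (rank 1728) and through that at 1737 bp in replicate 2 (rank 2134), which is not an optimal summit. These lists are not independent of the optimal list, which is made of the 3052 strongest regions of the pooled reads. For single summits the replicates differed more, at V0 genes as over the whole optimal list. A region of each replicate lay within 200 bp of 10 of 10 V0 optimal summits, against 91.9% of all optimal peaks. Within 100 bp the count was 9, because the replicate 2 summit near the inner unc-32 summit was 154 bp away. That replicate 2 summit lay closer to another pooled summit, 3661 bp into unc-32. Of the 10 V0 optimal summits, 5 were matched to one of the 3052 strongest regions of each replicate, against 43.9% of all optimal peaks. Those 5 were the summits of vha-1, vha-2 and vha-17, the inner summit of vha-3 and the upstream summit of vha-16.

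**Figure D2:**
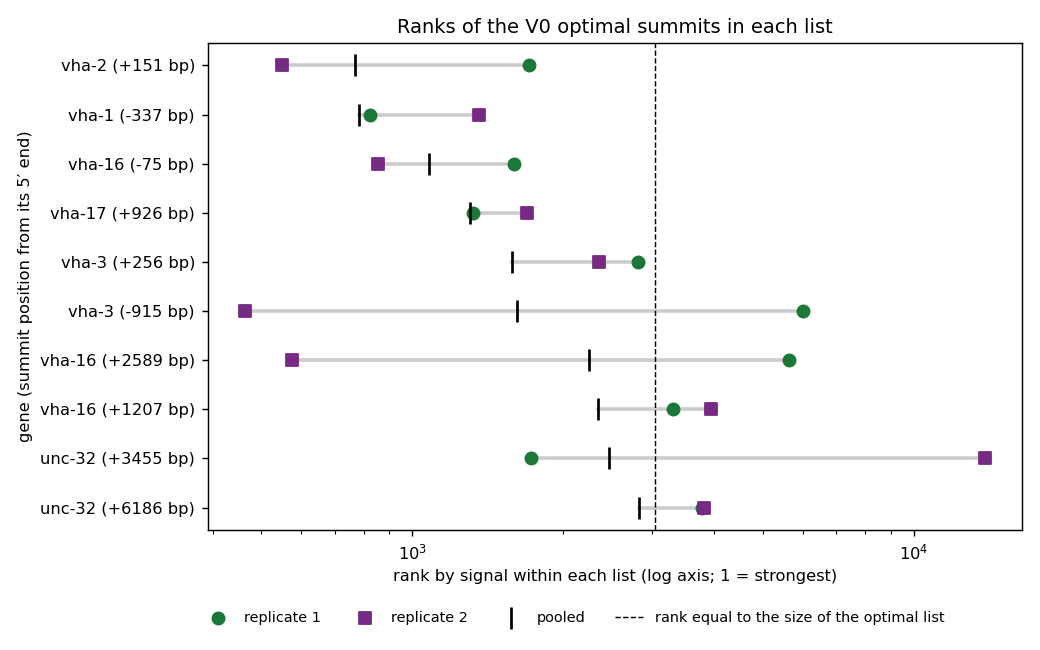
Rank of each of the 10 V0 optimal summits in the pooled list, replicate 1 and replicate 2, on a log axis where rank 1 is the strongest region. The line at 3052 is the length of the optimal list. The summits of vha-1, vha-2 and vha-17 are within it in all 3 lists, and the inner summit of unc-32 is at rank 13896 in replicate 2.

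Within the optimal list the V0 peaks were of ordinary strength. Their signal ran from 59.8 to 107 with a median of 77.5, against 57.9 to 1168 with a median of 79.2 for all optimal peaks. The GC content of the V0 peaks had a median of 41.4% and ranged from 34.1 to 53.4%, against a median of 40.9% for all optimal peaks. The −log10 q of the V0 peaks, also the authors' value, was 2.91 to 3.73. The 34 pooled summits in V0 windows outside the optimal list had signals of 15.5 to 55.5 with a median of 24.6.

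How many V0 peaks were shared with neighbouring genes depended on the window. Of the 10 V0 optimal summits, 6 also lay in the window of another protein-coding gene, against 40.3% of the optimal peaks that lay in any such window. With the upstream part of the window at 500 bp, 9 V0 optimal summits were in a window and 2 were shared, against 33.5% of all optimal peaks in any window of that kind. With the 1000 bp part, 2 of the 6 were shared with a gene on the same strand: the vha-2 summit lay 691 bp upstream of R10E11.6, whose annotated start overlaps the end of vha-2 by 219 bp, and the unc-32 summit past the 3′ end lay 343 bp upstream of tpk-1, the thiamine pyrophosphokinase gene, which starts 387 bp beyond unc-32.

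The other 4 were shared with a gene on the opposite strand. The vha-1 summit lay 563 bp upstream of sqv-3, a glycosyltransferase gene named for its vulval phenotype, between the starts of both genes. Both vha-3 summits lay in the window of Y38F2AL.12, the outer one 287 bp inside it and the inner one 884 bp upstream. The vha-17 summit was in nspg-11. Operon-like neighbours, meaning the next gene on the same strand within 500 bp, existed for vha-1 with vha-2, vha-2 with R10E11.6, vha-4 with T01H3.2, and unc-32 with tpk-1. vha-1 and vha-2 were the only V0 genes next to each other. Each had an optimal summit that was not in the other's window, though both summits were shared with the further neighbours named above.

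The V0 genes were set beside the V1 sector and accessory genes of the same pump, and the differences were not tested. An optimal summit was in the window of 6 of 10 V0 genes (60%) and 8 of 12 V1 and accessory genes (66.7%), which were vha-8, vha-9, vha-10, vha-11, spe-5, vha-13, vha-14 and vha-20. Within 500 bp of the 5′ end it was 4 of 10 V0 genes (40%) and 7 of 12 V1 and accessory genes (58.3%). Having 2 or more optimal summits was also not particular to V0, with 3 of 10 V0 genes (30%) and 4 of 12 V1 and accessory genes (33.3%). Optimal summits per 10 kb of window were 2.25 for V0 and 2.63 for V1 and accessory genes. The median of pooled summits per kb was 1.32 and 1.28. The median signal of each gene's strongest pooled region was 70.9 for V0 genes, 66.1 for V1 and accessory genes and 0 for all genes, since most genes had no region. The genes of that list without an optimal summit were vha-12, vha-15, vha-18 and vha-19, and vha-18 had no region in any list.

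The order of the V0 genes by strongest pooled region was vha-2, vha-1, vha-16, vha-17, vha-3, unc-32, vha-5, vha-4, vha-7 and vha-6. With genes that had no region counted as lower, vha-2 was above 96.4% of all genes in the pooled list, 93.3% in replicate 1 and 97.0% in replicate 2. vha-1 was above 96.3% in the pooled list, 96.5% in replicate 1 and 93.1% in replicate 2, so the replicates did not separate this pair. At the low end vha-6 was above 63.4% in the pooled list, 64.4% in replicate 1 and 75.0% in replicate 2, and vha-7 above 68.1%, 69.8% and 72.8% in the same lists. vha-6 and vha-7 likewise changed places between replicates. Between them and the 6 genes with optimal peaks stood vha-5, at 84.5% in the pooled list, 80.6% in replicate 1 and 85.6% in replicate 2, and vha-4, at 84.4%, 88.2% and 86.0%. In each of these 3 lists vha-4 and vha-5 were above vha-6 and vha-7. In replicate 1 and in replicate 2 they were also below all 6 genes with an optimal summit. The pooled list had to place those 6 genes higher, because the optimal list is made of its strongest regions. The replicate lists are not independent of the optimal list, so their order is no separate check.

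**Figure D3:**
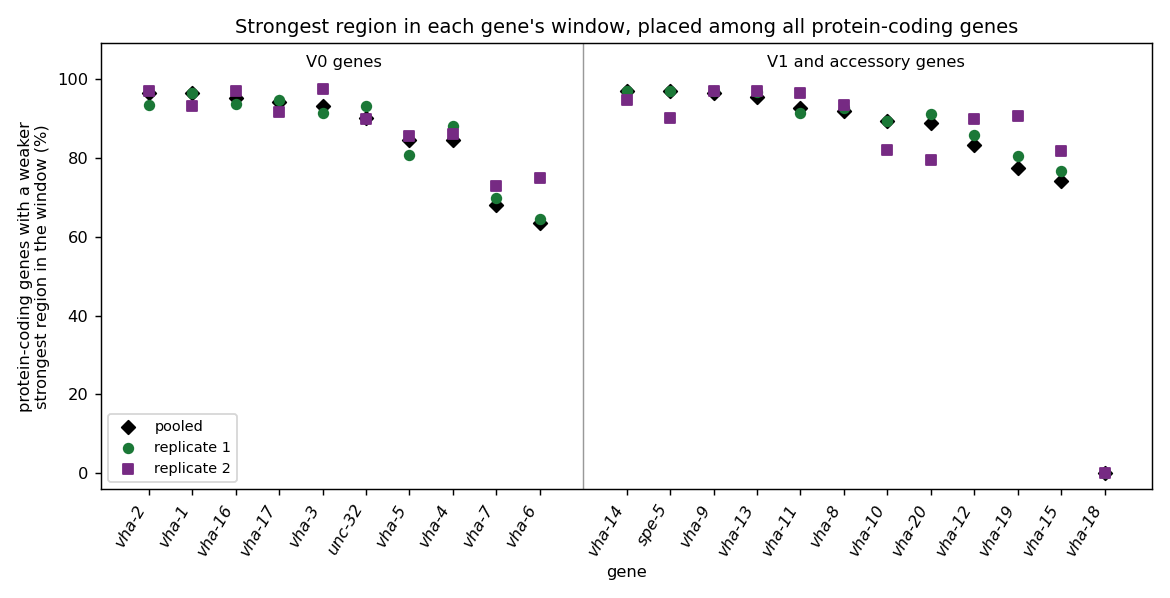
Percent of all protein-coding genes whose strongest region was weaker than that of the gene named, for the 10 V0 genes and then the 12 V1 and accessory genes, with 1 point each for the pooled list, replicate 1 and replicate 2. vha-6 and vha-7 stand lowest among the V0 genes, and vha-18 has no region.

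Short sequence motifs were counted in the 300 bases from 250 before to 50 after each annotated 5′ end. A match is a description of letters and not a site in use. CACGTG, the core of the E-box bound by HLH-30 and its mammalian relative TFEB, known for lysosomal genes, was in 0 of 10 V0 promoters with both strands searched, 1 of 12 V1 and accessory promoters and 5.82% of all promoters. TGATAA, which transcription factors of the GATA family bind, was in those of 2 V0 genes, vha-4 and vha-6. It was in 2 of 12 V1 and accessory promoters and 30.2% of all promoters. The vha-4 match was on the opposite strand, began 7 bases before the 5′ end and overlapped the CAG at that end. TATAAA was in 3 V0 promoters, vha-1, vha-6 and vha-7, in 3 of 12 V1 and accessory promoters and in 37.9% of all. Both strands were searched for each. Around the optimal summits, in 300 bases, CACGTG was in 0 of 10 for V0 and 9.63% of all. TGATAA was in 1 of 10 for V0 and 22.1% of all, and TATAAA in 1 of 10 and 20.8%.

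TTTCAG, the usual end of a worm intron and of the acceptor used in trans-splicing, was searched on the gene strand only. It was in 7 of 10 V0 promoters, 5 of 12 V1 and accessory promoters and 39.6% of all promoters. The vha-16 match began at the first base of the gene, and the vha-3 match began 49 bases before its start. Within the last 10 bases before the annotated 5′ end, a count chosen after the letters were seen, TTTCAG was in 5 of 10 V0 genes, 4 of 12 V1 and accessory genes and 13.3% of all genes. An exact search misses other acceptor-like ends. The bases before vha-2 and vha-4 also end in CAG directly at the annotated 5′ end, and CAG alone was not counted over all genes. The last 30 bases before the 5 ends with TTTCAG are shown with it in capitals, since an acceptor at an annotated end bears on how the distances above are read. They are at chrIII:9781224-9781253 (vha-1, plus strand), chrIV:8303938-8303967 (vha-5, plus), chrII:11438453-11438482 (vha-6, minus), chrIV:12640432-12640461 (vha-7, plus) and chrIV:9321771-9321800 (vha-17, plus).
vha-1: gaaattaattttcactcagatgTTTCAGgt
vha-5: tctaatggaattcaaacatcatttTTTCAG
vha-6: gatttttgttataaaattgtttaaTTTCAG
vha-7: tttcaaacttaattttttaaTTTCAGgacg
vha-17: tacataatgtgcaatttttcatatTTTCAG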

How the data were processed

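Peak calling was the authors' work, for each replicate and for the pooled reads, per the names of the deposited lists, which exist in builds ce10 and ce11. The 4 ce11 lists were used and the 4 ce10 lists were not. Column 7 of the deposited lists is a signal value per peak, and column 9 is a −log10 q value given by the authors, which was only described. For the aligner, the peak caller and the threshold on the irreproducible discovery rate the answer is the same: not given in the sources used here. Depth is unknown for each library, so no interval that needs it is given. The possible control libraries named in the labels were not analysed here.

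A summit is column 2 plus column 10, written 1-based. Gene bounds came from Ensembl release 115 and sequence from RefSeq, both WBcel235, the assembly of ce11. A summit counted for every gene whose window held it. A replicate match was the nearest summit within 200 bp. Ranks follow column 7. The window counting was tested on simulated data. Python 3.11.15, pandas 2.3.3, numpy 2.4.6, Biopython 1.88 and matplotlib 3.10.9 were used. Alternatives were other windows, peak numbers, match distances and each replicate alone. Genes named were the 10 V0 genes, 12 V1 and accessory genes, sharers of an optimal summit, and same-strand neighbours within 500 bp. Other genes and noncoding genes were named from the annotation at a summit after values were seen. The genes and lists were chosen with earlier results of these data known.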

Additional observations from a re-analysis of the deposited data

How the results depend on the processing

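Of 42 alternative values, 34 were within 1.5 times the reported count. With the 1526 strongest optimal peaks, 4 V0 genes had a summit, vha-1, vha-2, vha-16 and vha-17, so vha-3 and unc-32 were lost. V1 and accessory genes with a summit were 4, and the share over all genes was 6.67%. Within 500 bp of the 5′ end were summits of 3 V0 genes, against 3.12% of all genes. The same peaks gave 4 summits in V0 windows, 4 matched in both replicates and 3 shared with another gene. Of all those peaks in any window, 42.8% were shared, and for the match no share over all peaks is given. The 6104 strongest pooled regions gave 16 summits and 10 shared ones, against 36.9% shared of all those regions in any window. They added vha-4 and vha-5, while the share over all genes was 19.8% against 11.9%. With 500 bp upstream, 2 summits were shared (33.5% of all optimal peaks in any window). With 250 bp around the 5′ end, 2 V0 genes had a summit (all genes 4.07%). Without replicate 1 or 2, 6 V0 genes had a summit in either case, with 8 to 9 summits (all genes 13.4% and 10.9%). Without the part past the 3′ end 5 V0 genes did, vha-17 being lost (all genes 9.83%). With each summit counted for its nearest gene only, 5 V0 genes, again without vha-17, and 6 V1 and accessory genes did (all genes 8.67%). No paired analysis was possible because there was 1 group. The unknown depth limits what a weak or missing region can show, and the cause of these shifts beyond the number of peaks or the width of the window was not tested.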
